A study of Mus musculus with 6 samples.

Results

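Adenosine and purine signalling was examined across 6 RNA-seq libraries of mouse bone marrow–derived macrophages (BMDMs). Its 9 genes were taken by name out of the 54446 genes of the count table: the adenosine receptors Adora2a, Adora2b and Adora3, the enzymes Entpd1 and Ada, the ATP-gated channels P2rx4 and P2rx7, and the nucleotide receptors P2ry6 and P2ry12. The family was selected on ratios between these same libraries that were already known, so its values are a description and support nothing by themselves. The BMDMs came from bone marrow of male BALB/c mice, 6 to 8 weeks old, and had been grown for 7 days with 20% L929-conditioned medium. They stayed unpolarized (M0) or were polarized for 24 hours, either to M1 with LPS at 50 ng/mL plus IFN-γ at 20 ng/mL, or to M2 with IL4 at 20 ng/mL. Each state was sequenced as a control (DMSO) and with regorafenib, a multikinase inhibitor given at 1 µM from 1 hour before polarization. The study describes this schedule for cells that were then polarized. No time of exposure or harvest was available for the M0 libraries. There was 1 library per condition, so no difference has a replicate check and no test was made.

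Extracellular ATP released by stressed or activated cells is a danger signal that opens P2rx4 and P2rx7, and P2rx7 is known for switching on the Nlrp3 inflammasome. Entpd1 (CD39 antigen) on the cell surface strips ATP and ADP to AMP, Nt5e turns AMP into adenosine, and Ada removes adenosine as inosine. Adora2a and Adora2b are coupled to Gs and raise cAMP, which dampens macrophage activation, whereas Adora3 is coupled to Gi. P2ry6 responds to UDP, and P2ry12, best known from platelets and microglia, responds to ADP.

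The libraries held between 25359309 and 34898342 counts. The macrophage markers Adgre1, Cd68, Lyz2, Itgam, Mertk and Csf1r were present in every library, with a summed level of 21580 to 48190 CPM (counts scaled to the library size, as described for the ratios). All 4 T or NK cell markers and all 4 mast cell or basophil markers were at 0 in every library. All 3 B cell markers stayed at 3 counts or fewer. Of 5 neutrophil markers, Ly6g and Elane stayed at 3 counts or fewer, and the summed level of the list, carried by Mpo and S100a8, was 84.8 to 158 CPM. Of 3 platelet markers, Gp9 and Gp1bb were at 0 in every library, and of 3 microglia markers Sall1 was. The 4 M1 markers summed to 17030 and 11180 CPM in the M1 libraries and to at most 16.6 CPM elsewhere. In the M1 libraries that sum is mostly Nos2, which was lower with regorafenib (15890 to 9196 CPM). The other M1 markers were higher there, namely Il12b (392.7 to 1113 CPM), Cxcl9 (602.4 to 686.6 CPM) and Cxcl10 (141.9 to 187.7 CPM). The 4 M2 markers summed to 1297 and 641 CPM in the M2 libraries and to at most 33.8 CPM elsewhere. With regorafenib in M2, Arg1 (597.1 to 36.36 CPM) and Mrc1 (663.9 to 461.0 CPM) were lower than in the control. Retnla (25.77 to 119.7 CPM) and Chil3 (10.38 to 24.13 CPM) were higher.

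Adora2a and Adora2b were highest in the M1 libraries and higher there with regorafenib than in the control, while Adora2b was lower with regorafenib in M0 and M2. Entpd1 and P2rx4, and to a smaller extent P2rx7, were higher with regorafenib in M0 and M2 and nearly level in M1. P2ry12 and Ada were lowest in M1, Adora3 was barely detected, and P2ry6 spanned the narrowest range of the 9 genes. Counts were scaled with TMM to CPM. The log2 ratio of 2 libraries is given with a 95% interval from the 2 counts (conditional exact binomial), which covers counting error only. A gene is called past 2-fold when its ratio is at least 2-fold, its interval leaves out equality and it has at least 10 counts in 1 of the 2 libraries. Fewer cells that express a gene and less RNA per cell cannot be told apart in such bulk libraries.

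**Figure D1:**
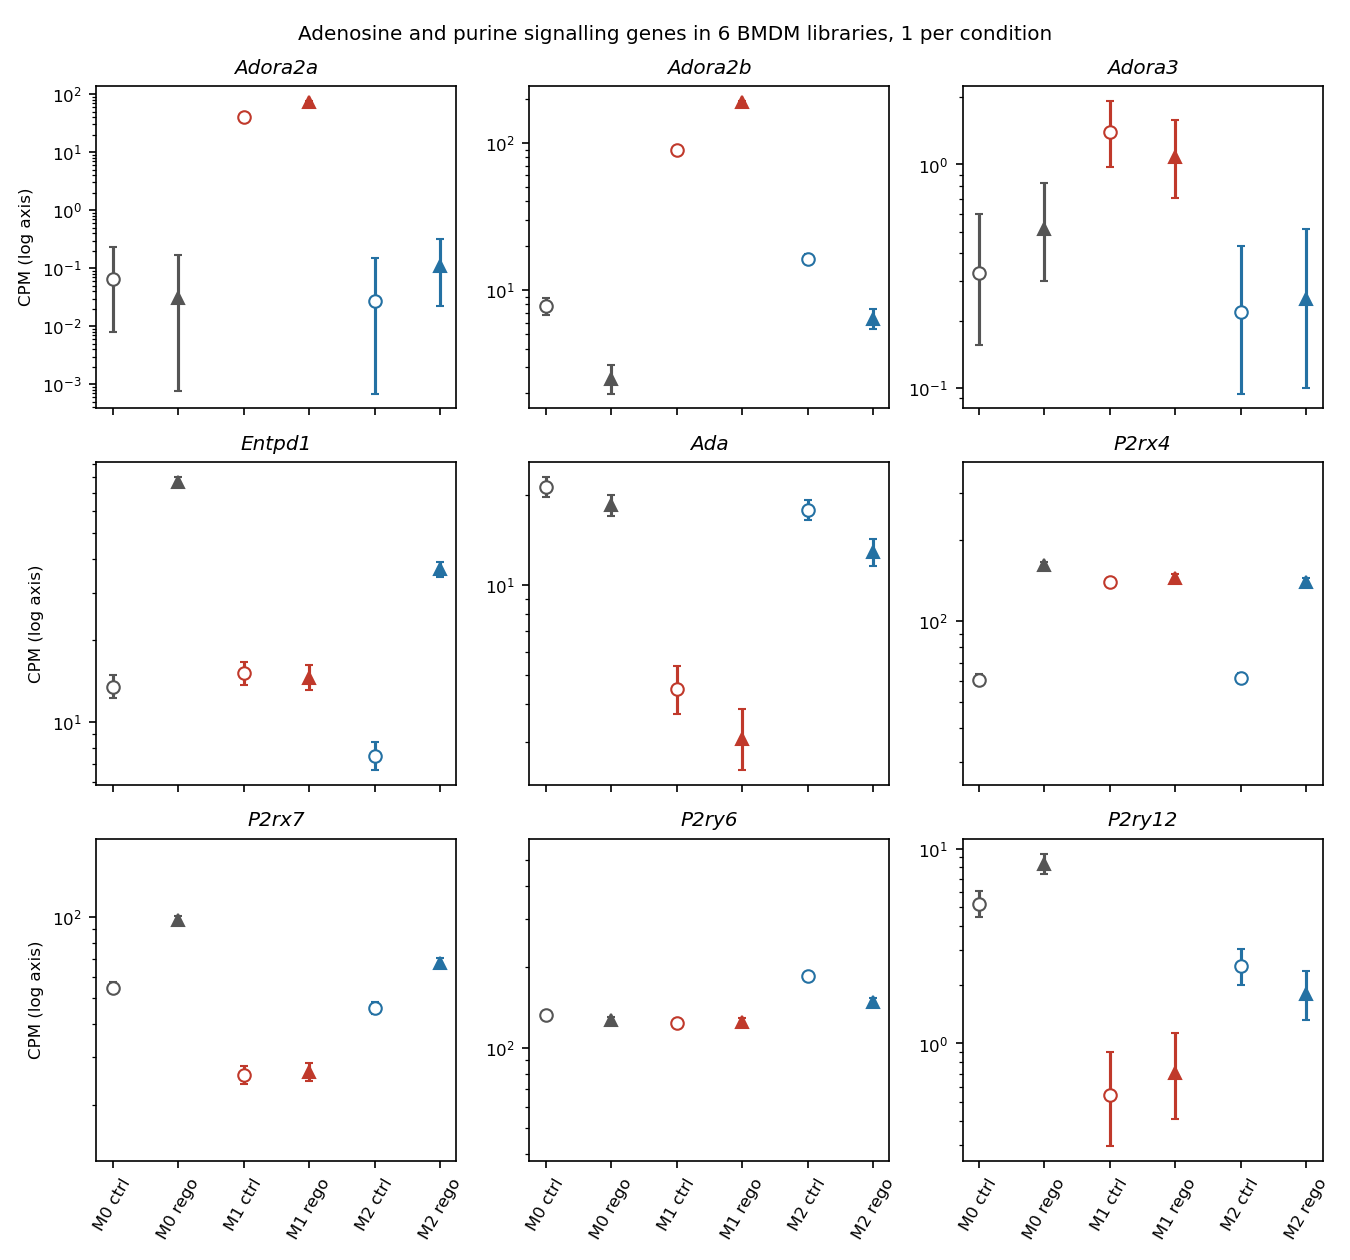
Level of each gene in the 6 libraries, in CPM on a log axis. Open circles are control and filled triangles regorafenib libraries, colored by state (grey M0, red M1, blue M2), and bars are 95% Poisson counting intervals. Adora2a is at 40.5 and 73.7 CPM in M1 and at 0.107 CPM or less elsewhere, and Entpd1 peaks at 77.2 CPM in M0 with regorafenib.

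Because the study followed the cAMP-responsive factor Creb1, the stretch before each transcription start was read for its motif. RefSeq promoter windows (GRCm38.p6) matched 7 of the 9 genes by symbol, with 9 windows, and Adora2a and P2ry6 had none. The 250 bases before the start are shown 5′ to 3′ for Entpd1, which has a pair of annotated starts, for P2rx4, which was higher together with it, and for Adora2b, which went the other way. These were the 3 genes past 2-fold with regorafenib in both M0 and M2. Capitals mark TGACG, the core of a cAMP response element (CRE), on either strand.
Entpd1, the upstream start (chr19:40612116-40612365, + strand): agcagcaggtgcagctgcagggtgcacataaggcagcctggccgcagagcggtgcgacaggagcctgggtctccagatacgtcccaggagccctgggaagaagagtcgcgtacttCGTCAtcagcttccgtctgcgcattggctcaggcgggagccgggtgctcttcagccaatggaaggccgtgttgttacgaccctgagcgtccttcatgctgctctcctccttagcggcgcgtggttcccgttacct
Entpd1, the downstream start (chr19:40659520-40659769, + strand): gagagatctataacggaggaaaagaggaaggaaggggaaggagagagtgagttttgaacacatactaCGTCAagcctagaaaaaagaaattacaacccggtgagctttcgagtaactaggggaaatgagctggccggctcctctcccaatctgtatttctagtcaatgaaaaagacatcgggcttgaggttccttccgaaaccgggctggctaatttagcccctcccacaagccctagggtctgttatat
P2rx4 (chr5:122707294-122707543, + strand): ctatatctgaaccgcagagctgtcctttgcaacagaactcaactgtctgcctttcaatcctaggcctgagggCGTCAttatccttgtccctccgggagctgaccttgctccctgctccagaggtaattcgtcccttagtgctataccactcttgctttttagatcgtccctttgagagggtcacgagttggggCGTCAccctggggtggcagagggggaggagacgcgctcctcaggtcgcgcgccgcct
Adora2b (chr11:62248734-62248983, + strand): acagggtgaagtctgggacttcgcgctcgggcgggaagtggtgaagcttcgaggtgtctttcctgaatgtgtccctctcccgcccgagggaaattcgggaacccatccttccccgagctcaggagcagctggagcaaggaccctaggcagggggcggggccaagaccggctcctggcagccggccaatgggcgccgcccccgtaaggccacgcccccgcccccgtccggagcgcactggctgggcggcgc

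The core TGACG occurred in 3 of the 9 windows, those of Entpd1 and P2rx4. In Entpd1 it began 135 bases before the upstream start and 183 bases before the downstream start. P2rx4 held it at 178 and 57 bases before its start, and the Adora2b window held none. Of all 32851 promoter windows of this length, 17.8% held at least 1 core and 3.9% at least 2. The full element TGACGTCA, which contains the core on both strands, was in none of the 9 windows and in 1.55% of all. The interferon-gamma activated site TTCNNNGAA was in the window of Ada and in 7.02% of all. A match is a description of letters and not a bound site.

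Adora2a (ENSMUSG00000020178.6, GRCm38 chromosome 10, 75316877 to 75334784, + strand) encodes an adenosine receptor that raises cAMP. It held 2 counts in the M0 control, 1 in M0 with regorafenib, 1045 in the M1 control, 1775 in M1 with regorafenib, 1 in the M2 control and 3 in M2 with regorafenib. Only the M1 libraries were above 3 counts, and no ratio is given within M0 or M2. Between the M1 and M0 controls the log2 ratio was 9.28 (interval 7.42 to 12.33, against 2 counts), and with regorafenib it was 11.25 (8.77 to 16.55, against 1 count). With 1 CPM added these were 5.28 and 6.18. Within M1 the ratio of regorafenib to control was 0.86 (0.75 to 0.98), which is 1.82-fold and short of 2-fold.

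Adora2b (ENSMUSG00000018500.2, chromosome 11, 62248984 to 62266453, + strand) also raises cAMP and has a lower affinity for adenosine than Adora2a. The M0 control held 238 counts and M0 with regorafenib 82, against 2323 and 4530 for M1, and 593 and 178 for M2. Scaled to depth, control before regorafenib, M0 stood at 7.75 and 2.49 CPM, M1 at 89.9 and 188 CPM, and M2 at 16.2 and 6.36 CPM. The M1 libraries were the highest by far, and the drug library was the higher of its pair in M1 only. On the log2 scale, regorafenib stood to control at −1.64 (−2.02 to −1.27) in M0, 1.06 (0.99 to 1.14) in M1 and −1.35 (−1.60 to −1.11) in M2, each past 2-fold. The M1 level was above that of M0 by 11.6-fold in the controls and 75.6-fold with regorafenib. The M2 control was 2.10-fold above the M0 control (log2 1.07, 0.85 to 1.29), a ratio that fell short of 2-fold when scaled by total counts or with 1 CPM added (both 0.98). The M0 control and M2 with regorafenib could not be told apart by their counts (0.28, interval −0.0022 to 0.57).

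Adora3 (ENSMUSG00000000562.5, chromosome 3, 105870858 to 105908926, + strand) was barely detected. It had 10 counts in the M0 control against 17 with regorafenib, 36 against 26 in M1, and 8 against 7 in M2. None of the 3 intervals of regorafenib to control left out equality, so no difference was detectable at this depth. The M1 control was 4.28-fold above the M0 control (log2 2.10, 1.06 to 3.27), a log2 ratio of 0.85 with 1 CPM added. Of the exon bases of Adora3, 20.9% are shared with Tmigd3 on the same strand, and reads over both genes are counted for neither. Tmigd3 itself held at most 1 count.

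Entpd1 (ENSMUSG00000048120.16, chromosome 19, 40612366 to 40741602, + strand), the ecto-enzyme that starts the path from ATP to adenosine, had the highest ratios of the 9 genes in M0 and M2. Control against regorafenib, it held 415 against 2544 counts for M0, 391 against 351 for M1, and 274 against 1024 for M2. The drug libraries of M0 and M2 stood above the other 4 libraries. The log2 ratio was 2.51 (2.36 to 2.67) in M0 and 2.29 (2.09 to 2.48) in M2, that is 5.71-fold and 4.88-fold, and −0.06 (−0.27 to 0.16) in M1. Among all genes measured, 98.8% had a lower ratio in M0 and 99.0% in M2. The M2 control was 1.80-fold below the M0 control (log2 −0.85, −1.07 to −0.62), and M2 was 2.11-fold below M0 with regorafenib. The summed level of 4 fibroblast markers was also higher with regorafenib, from 9.93 to 21.5 CPM in M0, from 20.5 to 29.9 CPM in M1 and from 9.53 to 18.8 CPM in M2. All 4 fibroblast markers had more than 3 counts in at least 1 library. The neutrophil list went from 84.8 to 158 CPM in M0, from 153 to 106 CPM in M1 and from 88.8 to 132 CPM in M2, and the macrophage list from 29790 to 48190, from 27400 to 29680 and from 21580 to 33330 CPM. The macrophage sum is mostly Lyz2 (25970 to 42740 CPM in M0 and 16710 to 27450 in M2), and of its 6 genes 4 were higher with regorafenib in both M0 and M2 and 2 lower. Besides Lyz2, the higher ones were Mertk (12.4 to 37.3 CPM in M0 and 8.08 to 20.5 in M2), Csf1r (1704 to 3076 and 1767 to 2823) and Adgre1 (634.5 to 928.9 and 1269 to 1384). The lower ones were Itgam (173 to 126 CPM in M0 and 217 to 130 in M2) and Cd68 (1294 to 1282 and 1606 to 1525). The dendritic cell list, 4 genes with Flt3 and Siglech at 3 counts or fewer, went from 0.456 to 0.182 CPM in M0, from 1.86 to 4.52 CPM in M1 (Xcr1 with 36 and 102 counts) and from 0.466 to 2.18 CPM in M2 (Zbtb46 with 15 and 59 counts). The part of these lists in the ratios of Entpd1 and P2rx4 was not tested.

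Ada (ENSMUSG00000017697.3, chromosome 2, 163726584 to 163750239, − strand), which clears adenosine, held 653 (control) and 609 (regorafenib) counts for M0, 116 and 74 for M1, and 651 and 361 for M2. Both M1 libraries were far below the other 4. The M1 control was 4.74-fold below the M0 control (log2 −2.24, −2.54 to −1.96) and M1 was 6.02-fold below M0 with regorafenib. The ratios of regorafenib to control were −0.20 (−0.36 to −0.04) in M0, −0.55 (−0.99 to −0.12) in M1 and −0.47 (−0.66 to −0.28) in M2. Each interval lay below 0 and none of the ratios was past 2-fold.

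P2rx4 (ENSMUSG00000029470.15, chromosome 5, 122707544 to 122729738, + strand) encodes an ATP-gated cation channel of the surface and of lysosomes. Control against regorafenib, M0 held 1861 against 5334 counts, M1 3631 against 3502, and M2 2246 against 3918. Scaled, the M0 and M2 controls lay at 60.6 and 61.5 CPM and the other 4 libraries between 140 and 162 CPM. Regorafenib libraries were higher by 2.67-fold in M0 (log2 1.42, 1.34 to 1.49) and 2.28-fold in M2 (1.19, 1.11 to 1.26), and level in M1 (0.05, −0.02 to 0.12). The M1 control was 2.32-fold above the M0 control (log2 1.21, or 0.77 when scaled by total counts), whereas with regorafenib M1 stood at 0.898 of M0. Both M1 libraries and M2 with regorafenib were neighbours in the order whose intervals held equality, as were the M0 and M2 controls.

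P2rx7 (ENSMUSG00000029468.17, chromosome 5, 122643911 to 122691432, + strand) ends 16111 bases before P2rx4 starts, on the same strand. It held 1675 (control) and 3214 (regorafenib) counts for M0, 666 and 637 for M1, and 1672 and 1885 for M2. The M1 libraries were the lowest pair. Regorafenib to control was 0.84 (0.75 to 0.92) in M0 and 0.56 (0.46 to 0.65) in M2, or 1.79-fold and 1.47-fold, both short of 2-fold, and 0.04 (−0.12 to 0.20) in M1. The M1 control was 2.12-fold below the M0 control, and M1 was 3.69-fold below M0 with regorafenib. Of its exon bases, 1.99% are shared with the miRNA gene Mir8115, which was at 0 in every library.

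P2ry6 (ENSMUSG00000048779.5, chromosome 7, 100937630 to 100974649, − strand), the UDP receptor, had the narrowest range of levels, with a log2 ratio of 0.58 between its highest and lowest library. It held 4059 (control) and 4170 (regorafenib) counts for M0, 3190 and 3000 for M1, and 6758 and 4145 for M2, or between 124 and 185 CPM. The M2 control was the highest library, 1.40-fold above the M0 control. With regorafenib in M2 it was lower, at a log2 ratio of −0.32 (−0.38 to −0.27), and the ratios in M0 and M1 were −0.06 and 0.01.

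P2ry12 (ENSMUSG00000036353.13, chromosome 3, 59216272 to 59262871, − strand), the ADP receptor, held 160 (control) and 276 (regorafenib) counts for M0, 14 and 17 for M1, and 91 and 50 for M2. The M0 libraries were the highest and the M1 libraries the lowest. The M1 control was 9.61-fold below the M0 control (log2 −3.26, −4.17 to −2.48, or −2.01 with 1 CPM added) and the M2 control 2.09-fold below it (−1.06, or −0.83 with 1 CPM added). Regorafenib to control was 0.68 (0.40 to 0.97) in M0, 0.38 (−0.73 to 1.51) in M1 and −0.48 (−1.01 to 0.03) in M2. With regorafenib, M2 was 4.68-fold below M0. The gene lies inside Med12l on the opposite strand and shares 9 exon bases with it, and Med12l held 9 to 67 counts (14 and 67 in M0). The strand setting of the counting is not given in the sources used here, so reads of the shared bases cannot be assigned.

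**Figure D2:**
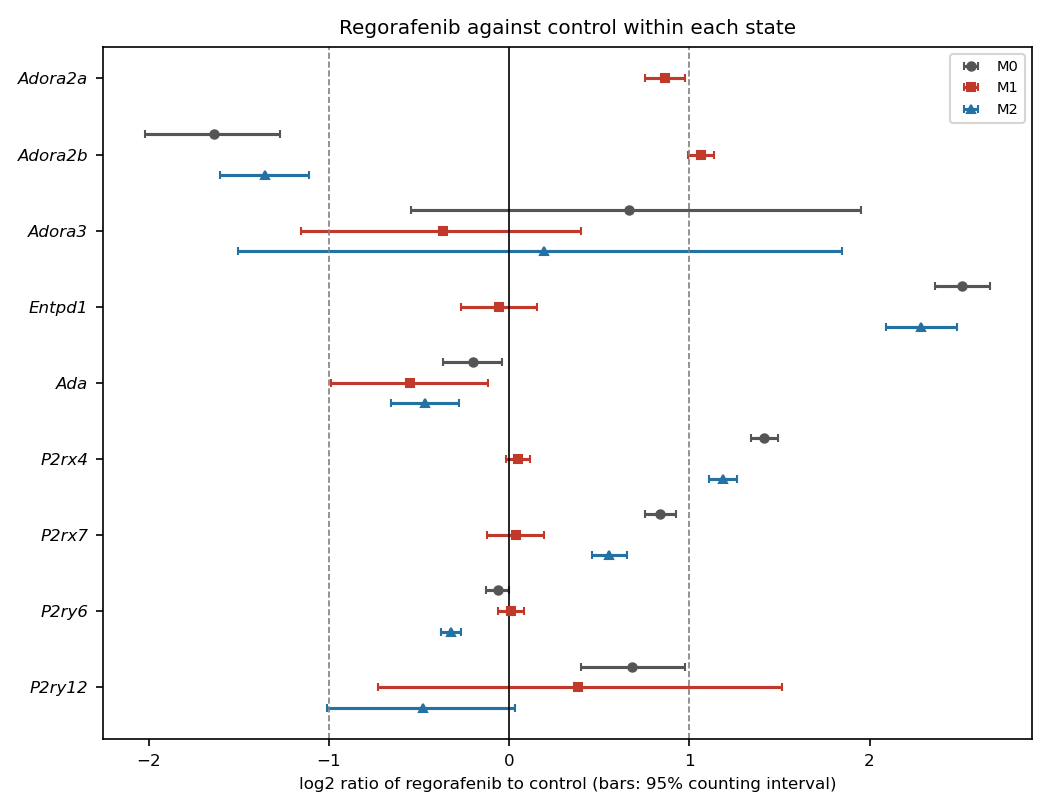
Log2 ratio of regorafenib to control for each gene in M0 (circles), M1 (squares) and M2 (triangles), with 95% counting intervals and dashed lines at 2-fold. Adora2b lies at −1.64 and −1.35 in M0 and M2 and at 1.06 in M1, and Entpd1 and P2rx4 lie past 2-fold in M0 and M2 and near 0 in M1. Adora2a has no point in M0 and M2, where both libraries held 3 counts or fewer.

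Counts of genes past 2-fold with regorafenib are given beside the share of all genes measured. In M0, 2 of the 8 genes with enough counts were past 2-fold higher (Entpd1 and P2rx4) and 1 lower (Adora2b), against 8.27% of 13964 genes higher and 10.2% lower. In M1, 1 of 9 was higher (Adora2b) and 0 lower, against 1.27% and 2.47% of 13440 genes. In M2, 2 of 7 were higher (Entpd1 and P2rx4) and 1 lower (Adora2b), against 5.23% and 4.11% of 13813 genes. Adora2a was not measured in M0, and Adora2a and Adora3 were not in M2. The median log2 ratio of the measured genes was 0.67 in M0, 0.04 in M1 and −0.32 in M2, where all genes had 0.005, −0.02 and −0.03. Since the genes were chosen with values of these libraries known, nothing is read from these shares.

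For polarization, the same counts were made against M0. Between the M1 and M0 controls, 4 of 9 genes were past 2-fold higher (Adora2a, Adora2b, Adora3 and P2rx4) and 3 lower (P2rx7, Ada and P2ry12), against 16.7% and 18.7% of 14168 genes. P2rx4 was short of 2-fold when scaled by total counts, and Adora3 with 1 CPM added. With regorafenib on both sides, 3 of 9 were higher (the adenosine receptors) and 4 lower (P2rx7, Ada, P2ry12 and Entpd1), against 15.8% and 20.2% of 14159 genes. Adora3 was short of 2-fold there when scaled by total counts (log2 0.65) or with 1 CPM added. Entpd1 was nearly level between the control libraries (log2 0.16, −0.04 to 0.37, and −0.28 when scaled by total counts). With IL4, 1 of 8 genes was higher (Adora2b) and 1 lower (P2ry12) in the controls, against 3.8% and 6.98% of 13830 genes. No gene was past 2-fold there with 1 CPM added. With regorafenib, 1 of 8 was higher (Adora2b) and 2 lower (P2ry12 and Entpd1), against 3.89% and 4.06% of 13841 genes. The M1 and M2 comparisons of a treatment share its M0 library, and the ratios of regorafenib share libraries with those of polarization.

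**Figure D3:**
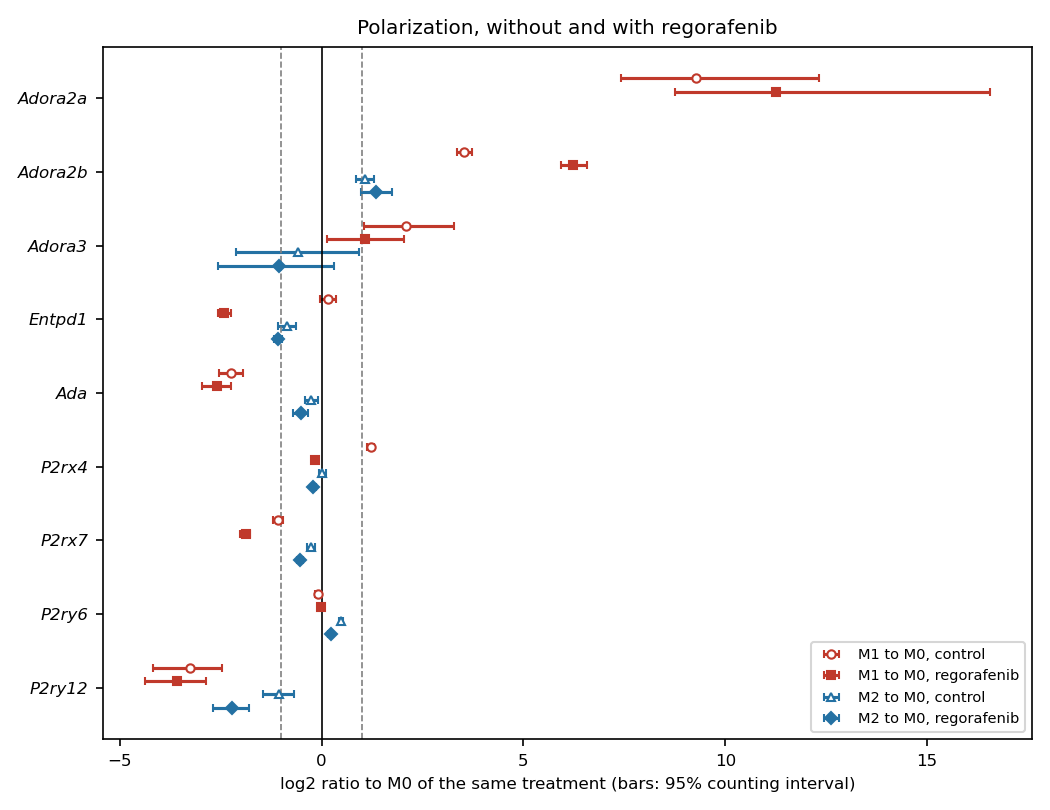
Log2 ratio of M1 (red) and M2 (blue) to M0 of the same treatment, with open symbols for controls, filled symbols for regorafenib, 95% counting intervals and dashed lines at 2-fold. For Adora2b the ratio of M1 to M0 is 3.54 in controls and 6.24 with regorafenib, while for P2rx4 it is 1.21 and −0.16.

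Compared between genes per kilobase of exon, P2ry6 had the highest level of the 9 genes in the M0 and M2 libraries, at 43.8 to 64.1 CPM per kilobase. In M1 Adora2b stood above it, at 48.7 CPM per kilobase in the control and 102 with regorafenib, where P2ry6 had 42.8 and 43.1. P2rx4 was next to P2ry6 in M0 and M2 with regorafenib, at 23.0 and 19.9 CPM per kilobase, where the controls had 8.62 and 8.76. Adora3 never exceeded 0.374 CPM per kilobase.

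Genes with the most similar profile were sought over the 6 libraries, among the 11313 genes that reached 100 counts, by the root mean square difference of centred log2(CPM + 1) values. Nearest to Adora2a was Il27, a subunit gene of the cytokine IL-27, with 9, 11, 1269, 2018, 7 and 7 counts in the order M0, M1, M2 and control before regorafenib (difference 0.068), followed by the complement gene Cfb (0.19). Nearest to Adora2b were Slc15a3 (0.40, correlation 0.98) and Abtb2 (0.58), and Slc15a3 held 49082 and 45901 counts in M1. The difference depends on how widely a profile varies, so its size is not compared between genes. The root mean square of the centred profile itself was 2.05 for Adora2b and 1.05 for Entpd1. Entpd1 was nearest to Peli2, with 429, 2275, 328, 249, 315 and 1074 counts (0.21), and to Pik3ip1 (0.27). For the others the nearest pairs were 6430548M08Rik and Padi2 for Ada, 2810013P06Rik and Tmem35b for P2rx4, Atg16l2 and Samd11 for P2rx7, Ap2a2 and Pdha1 for P2ry6, and Sv2a and Mvb12b for P2ry12, at differences of 0.04 to 0.24. Adora3 was left out for its low counts. The likeness is a description over 6 libraries that share the depth and the scaling of this table.

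The wider purinergic machinery was described from 8 lists by role with 53 further genes. With regorafenib in M0, 40 of these were measured, of which 2 were higher and 5 lower, where 8.27% and 10.2% of all genes were. In M1, 41 were measured, 1 higher and 3 lower, beside 1.27% and 2.47% of all genes. In M2, 40 were measured, 3 higher and 3 lower, beside 5.23% and 4.11% of all genes. Their median log2 ratios were −0.14, −0.06 and −0.26, and those of all genes 0.005, −0.02 and −0.03. Adora1 held 0 counts in every library, P2rx1, P2rx2 and P2ry4 held at most 2, and P2rx3 at most 6.

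Among the other nucleotide receptors, P2ry14, a receptor for UDP-sugars that lies with P2ry12 inside Med12l, held 303 and 763 counts in M0 (log2 ratio 1.23, 1.04 to 1.43), and its ratios in M1 and M2 were 0.55 and 0.67. P2rx5, another ATP-gated channel, had few reads, with 21 and 34 counts for M0, 31 and 65 for M1, and 27 and 59 for M2. It was past 2-fold higher in M1 (1.17, 0.53 to 1.84) and M2 (1.51, 0.83 to 2.23), and short of 2-fold in both with 1 CPM added (0.749 and 0.838). Its interval in M0 included 0 (−0.23 to 1.45). P2rx6, also a channel of this family, held 14 and 29 counts for M0 and 8 and 12 for M2, and both intervals included 0 (−0.02 to 1.98 and −0.44 to 2.46). Over the channels measured, 4 of 7 in M0 and M2 and 3 in M1, the median log2 ratio was 0.89 in M0, 0.05 in M1 and 1.08 in M2, where all genes had 0.005, −0.02 and −0.03. These channels include P2rx4 and P2rx7, which were chosen with values of these libraries known. The others, P2rx5 and P2rx6, had few reads, so nothing is read from these medians.

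Of 10 ecto-enzymes, 4 were measured with regorafenib in M0, 5 in M1 and 3 in M2. Among those measured, Entpd1 was the only one past 2-fold higher in any of the 3 states. Enpp1, which cleaves ATP to AMP and pyrophosphate, was lower in M2 (3798 and 1263 counts, −1.20, −1.30 to −1.11). Bst1, an NAD-consuming ecto-enzyme, was lower in M0 (3563 and 1826 counts, −1.07, −1.15 to −0.98). Nt5e, which would complete the path from AMP to adenosine, held only 3 to 32 counts, with 32 and 11 in M1 (−1.44, −2.58 to −0.41, or −0.62 with 1 CPM added), and is named here after its values were seen.

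In the list of adenosine clearance, transport and salvage, 14 of 15 genes were measured. Slc28a2, a concentrative nucleoside transporter, was lower in all 3 states, from 486 to 178 counts in M0 (−1.55), from 1638 to 763 in M1 (−1.002) and from 404 to 146 in M2 (−1.08). Only the M0 ratio was past 2-fold under every alternative. In M1 it was short of 2-fold under each other scaling and with 1 CPM added (−0.99 to −0.96), and in M2 with 1 CPM added (−0.956). The equilibrative transporter Slc29a1 went the other way in M2, from 1341 to 2147 counts (1.06, 0.96 to 1.16). Ahcy, which splits S-adenosylhomocysteine to adenosine, and Gda, guanine deaminase, were lower in M0 (−1.43 and −1.17).

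Further along, Gja1, the connexin gene of ATP-permeable hemichannels, was lower in M1 (3441 and 1435 counts, −1.16) and M2 (206 and 20 counts, −2.98), and in M0 with 80 and 19 counts (−2.18). With 1 CPM added its ratios were −1.95 in M2 and −1.19 in M0. Pde4b, which degrades cAMP, was higher in M0 (176 and 445 counts, 2.36-fold) and M2 (76 and 189 counts, 3.25-fold), and level in M1, at 5438 and 5074 counts. It was the only 1 of 8 genes of the cAMP list past 2-fold with regorafenib. None of the 6 inflammasome genes (Nlrp3, Nek7, Pycard, Casp1, Gsdmd and Il1b) was past 2-fold in any state, with medians of −0.18, 0.07 and −0.11. With 1.27% to 10.2% of all genes past 2-fold in each direction, counts of 0 of 6 and 1 of 8 do not set these lists apart.

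**Figure D4:**
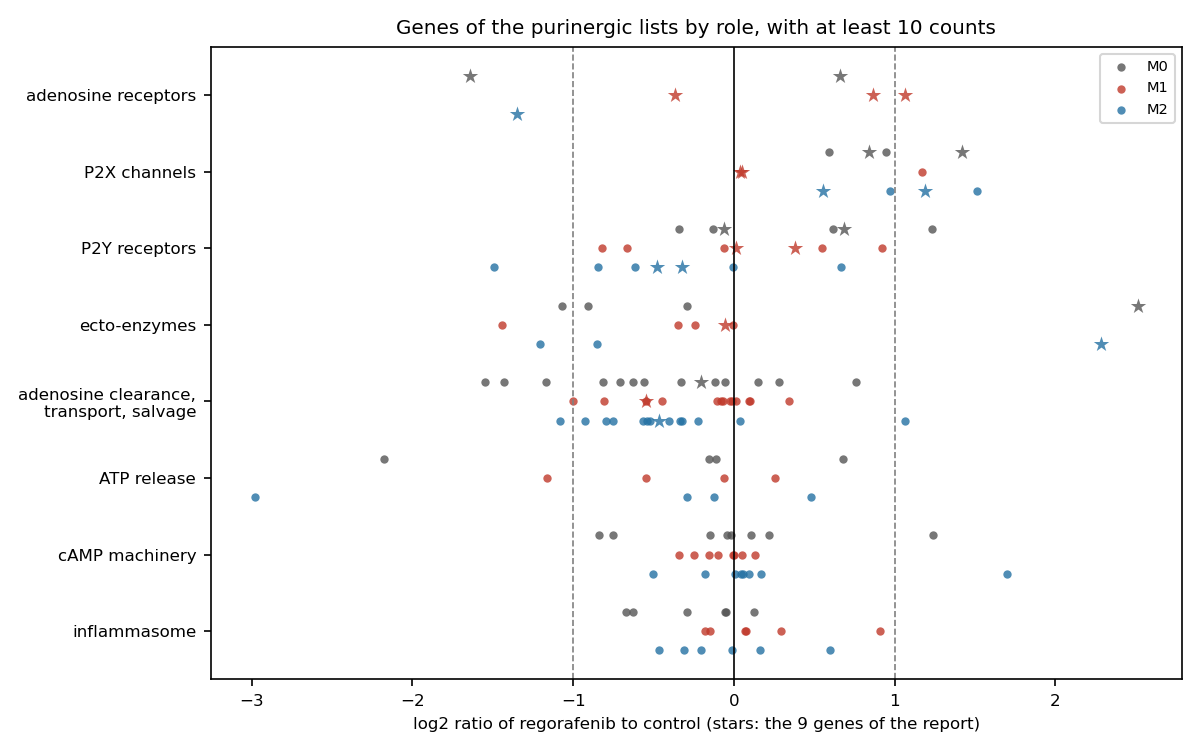
Log2 ratio of regorafenib to control for genes of the 8 lists with at least 10 counts in 1 of the 2 libraries, by role and state (grey M0, red M1, blue M2), with stars for the 9 genes described above and dashed lines at 2-fold. Of 7 channels, 4 are shown in M0 and M2 and 3 in M1, and the inflammasome genes lie within the dashed lines.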

How the data were processed

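RNA of BMDMs was sequenced from 6 libraries, 1 per condition. The authors deposited raw read counts per gene, made with cutadapt 2.4, STAR 2.7.2a on GRCm38 (versions from the submitters' processing notes) and STAR gene counting on Gencode M19; the libraries were stranded, and the strand column taken is not given in the sources used here. Reads over more than 1 gene are left out by such counting. Names, positions and exon lengths came from Gencode M21 on GRCm38. Of 54446 gene IDs, 53229 matched with their version, 1180 without it and 37 did not match.

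Counts were scaled with TMM (edgeR 4.0.16, R 4.3.3) over the 6 libraries. Log2 ratios, with 0 taken as 0.5, were computed for 7 pairs of libraries (Python 3.11.15, scipy 1.17.1), with 95% conditional exact binomial intervals. A gene was measured with at least 10 counts in 1 of the 2 libraries. For calls, a count of 3 or fewer was set at 3, and pairs with both counts that low were given no ratio. Intervals and calls were tested on simulated Poisson counts. These hold the counting error that the intervals assume and no variation between replicates, so they say nothing about such variation. The no-replicate mode of NOISeq used by the study rests on simulated replicates and was not used. No test was made, and intervals cover counting error only.

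The 9 genes, the gene lists, the call rule and the rule for named genes were chosen with earlier results of these data known. Named genes were all 9 genes, other listed genes past 2-fold with regorafenib that reached 100 counts in that pair, listed genes at low counts in a receptor family, and the 2 nearest profiles of each gene. Alternatives were scaling by total counts, by DESeq2 1.42.0 size factors or by TMM on 2 libraries, 1 CPM added, no minimum count, and 2-fold alone. Promoter windows came from RefSeq (GRCm38.p6).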

Additional observations from a re-analysis of the deposited data

Results flagged for a closer look

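Adora2b was singled out because its ratio of regorafenib to control had opposite directions in different states, with intervals that left out equality under TMM, total counts and DESeq2 size factors. Its log2 ratio in M1 exceeded that in M0 by 2.703, and its log2 ratio in M2 minus that in M1 was −2.42. These differences rest on 1 library per condition and were not tested. None of the other 8 genes met this condition.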

How the results depend on the processing

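Of 168 counts of genes past 2-fold recomputed under 6 alternatives, 163 stayed within 1.5 times the reported count and 5 did not. With 1 CPM added, the further purinergic genes past 2-fold with regorafenib in M1 were 0 higher and 1 lower (reported 1 and 3). Between the M2 and M0 controls, the 9 genes had 0 higher and 0 lower with 1 CPM added, and 0 higher when scaled by total counts (reported 1 and 1). Adding 1 CPM shrinks the ratios of low genes by construction, and the cause under total counts was not tested.

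Scaling by total counts lowered the median log2 ratio of all genes between M1 and M0 from −0.05 to −0.49 in controls and from −0.09 to −0.51 with regorafenib, so ratios of M1 to M0 are relative to that shift. Of 236 recomputed ratios of the 9 genes, 25 moved by more than their counting interval, 16 of them under total counts. The sign turned for 3 ratios, none past 2-fold: Entpd1 between the M1 and M0 controls (0.16 to −0.28 with total counts), P2rx4 between the M2 and M0 controls (0.02 to −0.07 with total counts) and P2ry6 between M1 and M0 with regorafenib (−0.02 to 0.05 with DESeq2 size factors). With regorafenib against control, every count over the 9 genes was the same under all 6 alternatives.

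The labels give no replicate numbers, so no fit with a replicate block was made. An additive fit of state and drug over the 6 libraries, which takes the states as repeats of the drug comparison, was not made. With 1 library per condition none was left out. Intervals cover counting error only. Adora2a outside M1, Adora3 and Nt5e were limited by depth.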
